A study of Mus musculus with 20 samples.

Results

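The genes described here mark the blood vessels and coverings of the brain: 36 of the 47729 genes in the count files, chosen by gene symbol as transcripts of brain endothelium, pericytes, vascular smooth muscle and meningeal fibroblasts. Of these, 23 are endothelial (5 receptors, 6 transporters, 8 junction, surface or secreted proteins and 4 transcription factors), 6 are pericyte genes, 2 are smooth muscle genes and 5 are meningeal fibroblast genes. They were measured by RNA-Seq in cortex and hippocampus dissected from C57Bl/6J mouse pups at postnatal day 7. The 5 WT mice (numbers 1 to 5) carried no transgene, and the 5 *Ube3aOE* mice (numbers 6 to 10) carried extra copies of *Ube3a*, which encodes an E3 ubiquitin ligase, on a bacterial artificial chromosome transgene that was built to follow the gene's own expression pattern and came from 1 mouse line. Each mouse gave 1 cortex and 1 hippocampus library, so each of the 4 groups held 5 libraries.

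Brain capillaries are tubes of endothelial cells sealed by tight junctions and equipped with transporters, and together these form the blood-brain barrier. Pericytes lie on the capillary wall, smooth muscle cells wrap arteries and arterioles, and fibroblasts build the collagen-rich meninges and follow the larger vessels into the tissue. At postnatal day 7 the mouse brain vasculature is still growing by sprouting, which depends on VEGF and angiopoietin signals to endothelial receptors and on PDGF signals that recruit pericytes.

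Library totals ran from 14191093 to 16752326 gene counts, and the 36 genes together took between 0.0544% and 0.109% of them (median 0.0790%). Levels are given as TMM-scaled CPM, the counts of a gene relative to the library's effective total, and a log2 fold change (log2FC) is the difference of the fitted log2 levels with its standard error (SE). *Ube3a* itself lay between 54.4 and 76.8 CPM in the 10 WT libraries and between 129.6 and 194.7 CPM in the 10 *Ube3aOE* libraries. Some libraries stood apart. In WT mice 3 and 5 the sex-linked transcripts went against the labelled sex. The cortex library of WT mouse 2 gave 3.95% of its counts to *Gm42418*, a transcript that overlaps ribosomal RNA sequence, against 0.203% to 2.22% in the other 19 libraries. The hippocampus library of that mouse held the most neocortex marker transcript of the 10 hippocampus libraries (378.3 CPM against 156.3 to 250.4). Choroid plexus markers summed to 2084 CPM in the hippocampus of *Ube3aOE* mouse 7 and 415.0 CPM in that of mouse 9, against 52.5 to 83.4 CPM in the other 8. Markers of the thalamus reached 553.7, 574.3 and 1094 CPM in the hippocampus of mice 4, 7 and 10, and striatal markers 531.1 CPM in that of mouse 9. The cortex libraries of *Ube3aOE* mice 8 and 9 held 231.8 and 223.1 CPM of hippocampus markers against 108.1 to 142.9 in the other 8 cortex libraries, and the least neocortex marker (496.3 and 572.7 CPM against 633.6 to 818.6).

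The defining markers of every class were present. Each of the 36 genes had at least 7 counts in every library and passed the filter on low counts in every comparison. Per kilobase of exon, the scale on which genes can be compared, *Cldn5*, the main claudin of brain endothelial tight junctions, had the highest mean level over the 20 libraries at 35.8 CPM per kilobase. The pericyte gene *Rgs5*, a regulator of G protein signaling, came next (26.7), and both held these places in each tissue. The order of the next 3 differed between the tissues. In cortex *Vtn*, the secreted matrix protein vitronectin, was at 22.4, *Tfrc*, the transferrin receptor, at 18.8 and *Mfsd2a*, a lipid transporter, at 16.5 CPM per kilobase. In hippocampus *Mfsd2a* was at 18.0, *Vtn* at 16.2 and *Tfrc* at 14.9. The lowest levels were those of *Sox17* (0.409), *Emcn* (0.610) and *Slco1a4* (0.627). In bulk tissue a lower level can mean fewer cells of a type or less RNA per cell, and the data cannot tell these apart.

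The promoters of members with a listed start were searched for short sequences, and the classes were not tested against each other. ETS-family transcription factors, to which the members *Erg* and *Fli1* belong, bind sites built on a GGAA core. The letters AGGAAG hold that core, and on the other strand they read CTTCCT. RefSeq lists a start for 23 of the 36 members on GRCm38.p6. In the 250 bases before a listed start, they were found on either strand in 11 of 16 endothelial members (68.8%) and in 0 of the 7 pericyte, smooth muscle and fibroblast members, beside 32.3% of the 27025 genes with a listed start. The 0 rests on 7 genes, too few to set it apart from the share of all genes. The general promoter element CCAAT, whose other strand reads ATTGG, was found in 6 of 16 endothelial members (37.5%) and in 2 of the other 7, beside 37.5% of all genes. The sequences below show this for an endothelial receptor with a match close to its start (*Eng*), for another receptor (*Flt1*), for a surface protein (*Emcn*), for an endothelial junction gene without a match (*Cldn5*) and for a fibroblast collagen (*Col1a2*). Each runs 5′ to 3′ over the last 150 bases before the start, on the strand of the gene, with matches to these letters in capitals. They lie at chr2:32646445-32646594 (+ strand), chr5:147726012-147726161 (- strand), chr3:137340928-137341077 (+ strand), chr16:18776697-18776846 (+ strand) and chr6:4505468-4505617 (+ strand).
Eng: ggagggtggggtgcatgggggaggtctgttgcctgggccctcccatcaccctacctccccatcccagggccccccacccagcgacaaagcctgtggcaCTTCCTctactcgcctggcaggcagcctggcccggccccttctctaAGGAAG
Flt1: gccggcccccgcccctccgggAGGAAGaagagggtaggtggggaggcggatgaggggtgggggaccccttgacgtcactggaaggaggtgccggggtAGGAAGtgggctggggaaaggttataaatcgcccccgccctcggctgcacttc
Emcn: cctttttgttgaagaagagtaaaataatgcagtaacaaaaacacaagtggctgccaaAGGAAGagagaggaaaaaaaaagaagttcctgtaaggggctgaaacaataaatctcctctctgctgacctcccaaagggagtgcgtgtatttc
Cldn5: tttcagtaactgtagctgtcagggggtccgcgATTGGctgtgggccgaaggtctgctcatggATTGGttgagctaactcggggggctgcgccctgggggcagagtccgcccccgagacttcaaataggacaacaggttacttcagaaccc
Col1a2: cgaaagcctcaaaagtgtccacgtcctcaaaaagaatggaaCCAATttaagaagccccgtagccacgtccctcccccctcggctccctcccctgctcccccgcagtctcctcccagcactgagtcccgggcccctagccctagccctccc
The *Eng* matches begin 52 and 6 bases before the start, those of *Flt1* 129 and 53 bases before it, and that of *Emcn* 93 bases before it. A match of letters is a description of the sequence and was not tied to binding here.

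**Figure D1:**
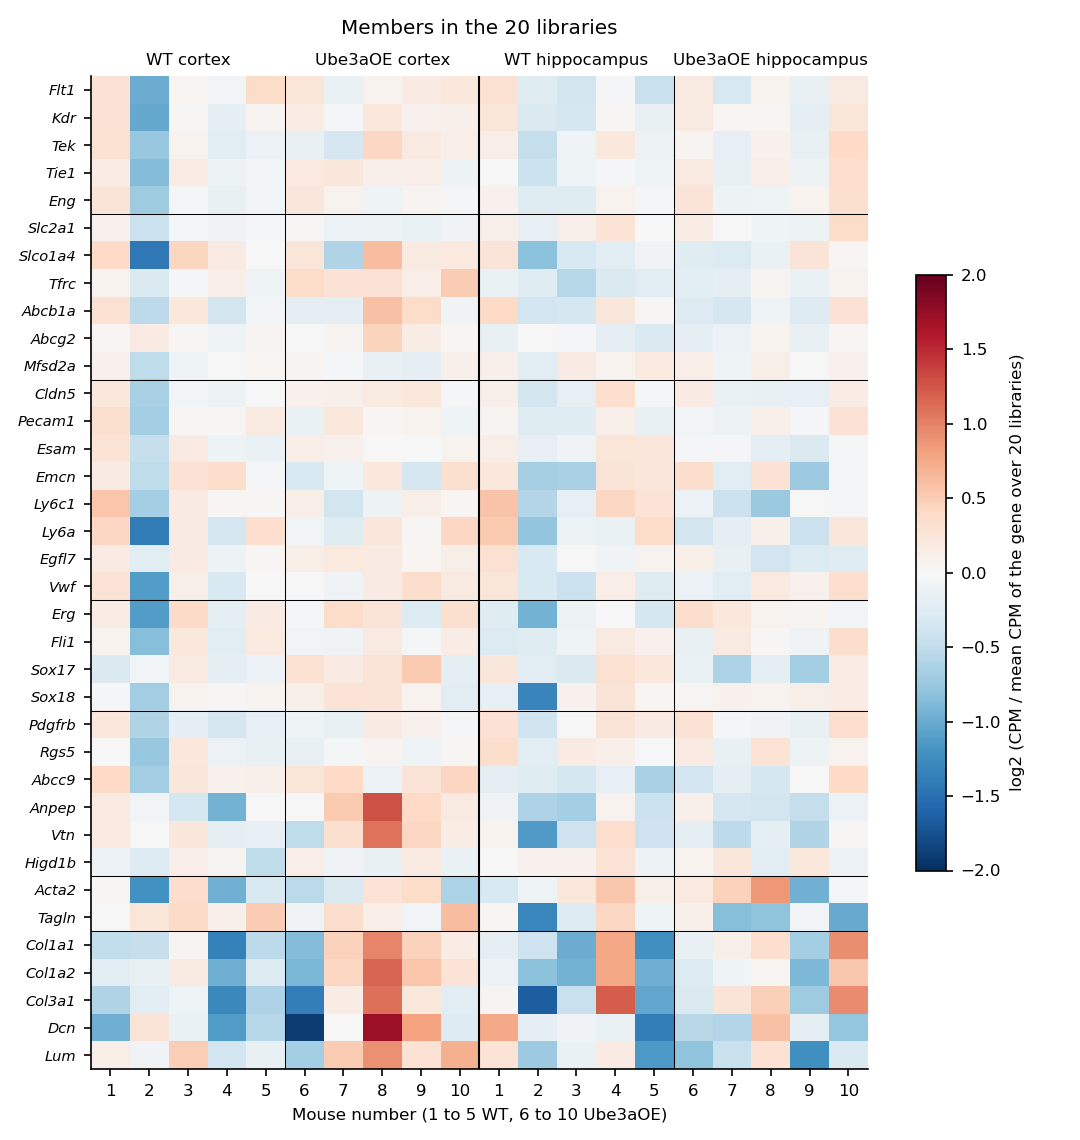
Level of each of the 36 genes in each of the 20 libraries, as log2 of the CPM over the gene's mean CPM (red above the mean, blue below it). Columns are mice within the 4 groups and rows are genes in their 7 classes. The cortex library of WT mouse 2 is blue for nearly all endothelial genes, and the fibroblast genes at the bottom vary most from mouse to mouse.

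The question of the tissue comparison was whether vascular and meningeal transcripts were shared evenly between hippocampus and cortex. Of the 36 genes, 0 were higher in hippocampus, 7 were lower and 29 did not pass the test (edgeR, adjusted *P* under 0.05). Across all 15661 genes tested 50.9% passed, 25.3% higher and 25.6% lower in hippocampus (3963 and 4010 genes). On library totals without TMM, 4876 genes were higher and 2927 lower, and of the members 2 were higher and 2 lower. The 7 lower genes were the endothelial transporters *Tfrc* and *Abcg2*, the pericyte genes *Abcc9*, *Anpep* and *Vtn*, the smooth muscle gene *Tagln* and the fibroblast gene *Lum*. The median log2FC of hippocampus over cortex was -0.05 for the 36 genes and -0.01 for all genes. DESeq2 and limma voom also had 0 members higher, beside 25.9% and 25.2% of all genes. At an unadjusted *P* under 0.05 edgeR had 1 member higher (*Slc2a1*) and 7 lower, beside 56.3% of all genes in either direction. Hippocampus and cortex came from the same animals, and with the mouse as a replicate block 4 members were higher (*Slc2a1*, *Mfsd2a*, *Pdgfrb* and *Rgs5*) and 6 lower (*Tfrc*, *Abcg2*, *Abcc9*, *Tagln*, *Lum* and the secreted factor *Egfl7*). That fit had 27.4% of all genes higher and 28.4% lower. The number of lower members also depended on single mice. It was 4 without WT mouse 1, without WT mouse 2 or without *Ube3aOE* mouse 9, 3 without WT mouse 3 or WT mouse 5, and 2 without *Ube3aOE* mouse 7. Of all genes, 22.4% to 24.6% were lower as each mouse was left out. *Tfrc* and *Abcg2* kept an adjusted *P* under 0.05 without any 1 of the 10 mice. The number of higher members was 2 without WT mouse 2 and 1 without *Ube3aOE* mouse 9, beside 26.2% and 25.7% of all genes. Without the mice whose sex-linked transcripts went against their labels, 1 member (*Tfrc*) was lower, beside 19.1% of all genes. Without the hippocampus libraries of *Ube3aOE* mice 7 and 9, 4 were lower and *Slc2a1* was higher, beside 24.3% and 24.6%. Without the cortex libraries of *Ube3aOE* mice 8 and 9, *Tfrc*, *Abcc9* and *Tagln* were lower and *Acta2* was higher, and *Abcg2* (edgeR adjusted *P* = 0.0547) no longer passed. That fit had 24.7% of all genes lower and 25.9% higher.

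The 5 endothelial receptors were at similar levels in both tissues. They are the VEGF receptors *Flt1* and *Kdr*, the angiopoietin receptor *Tek* with its relative *Tie1*, and *Eng*, a TGF-beta co-receptor. None passed the edgeR test, also at an unadjusted *P* under 0.05. Their log2FC ran from -0.12 (*Flt1*) to 0.04 (*Eng*), and the 95% intervals of all 5 lay inside a change of 0.5 on the log2 scale in either direction. Their summed level ran from 51.3 to 112 CPM in cortex (median 97.4) and from 75.4 to 115 CPM in hippocampus (median 92.0). The lowest library of each tissue was that of WT mouse 2.

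The transporters split. *Tfrc*, which carries iron-loaded transferrin and is also made by neurons and dividing cells, lay between 85.4 and 148 CPM in cortex (median 115) and between 69.8 and 109 CPM in hippocampus (median 90.4). It was lower in hippocampus in 9 of 10 mice, with a log2FC of -0.33 ± 0.06 (SE) and an edgeR adjusted *P* of 0.000187 (chr16:32608920-32632794 on GRCm38). The summed pan-neuronal markers were also lower in hippocampus, at 0.688 to 0.898 times the cortex value in all 10 mice, and their part in the *Tfrc* difference was not tested. *Abcg2*, an efflux pump of the barrier (chr6:58584523-58695676), lay between 22.0 and 31.9 CPM in cortex (median 24.1) and between 19.2 and 24.5 CPM in hippocampus (median 21.3), again lower in 9 of 10 mice, with a log2FC of -0.19 ± 0.06 (edgeR adjusted *P* = 0.0120). The levels of both genes overlapped between the tissues. The glucose transporter *Slc2a1* went the other way, from 25.6 to 36.5 CPM in cortex (median 32.7) and from 30.7 to 44.5 CPM in hippocampus (median 35.9). Its level was higher in the hippocampus of all 10 mice, by a log2FC of 0.16 ± 0.07, which did not pass the test (edgeR adjusted *P* = 0.0669) and passed it with the mouse as a block (log2FC 0.15 ± 0.05, edgeR adjusted *P* = 0.0187). *Mfsd2a*, which carries lipids across the barrier and holds transcytosis down, showed a log2FC of 0.12 ± 0.07, higher in 8 of 10 mice (edgeR adjusted *P* = 0.139, and 0.0183 with the block). The organic anion transporter *Slco1a4* and the efflux pump *Abcb1a* did not pass, and *Slco1a4* was the single endothelial gene whose interval (-0.62 to 0.14) reached past 0.5.

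None of the 8 junction, surface and secreted genes passed the edgeR test, also at an unadjusted *P* under 0.05. *Cldn5* had a log2FC of -0.03 ± 0.09, with levels from 32.2 to 58.8 CPM in cortex (median 52.2) and from 39.3 to 63.7 CPM in hippocampus (median 47.7). The adhesion molecules *Pecam1* and *Esam*, the sialomucin *Emcn*, the surface antigens *Ly6c1* and *Ly6a*, and *Vwf*, the clotting factor stored in endothelial cells, gave log2FC values between -0.07 and -0.02. *Egfl7*, a secreted endothelial factor whose gene also hosts a microRNA, had a log2FC of -0.15 ± 0.07 (edgeR adjusted *P* = 0.101, and 0.0247 with the block). The 4 transcription factors, the ETS factors *Erg* and *Fli1* and the SOX factors *Sox17* and *Sox18*, had log2FC values between -0.17 and 0.03, and none passed, also at an unadjusted *P* under 0.05. Across the 23 endothelial genes, 2 passed (8.70%), beside 50.9% of all genes, and the median log2FC was -0.03. Of their intervals, 22 of 23 lay inside 0.5 in either direction, against 9662 of 15661 over all genes.

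**Figure D2:**
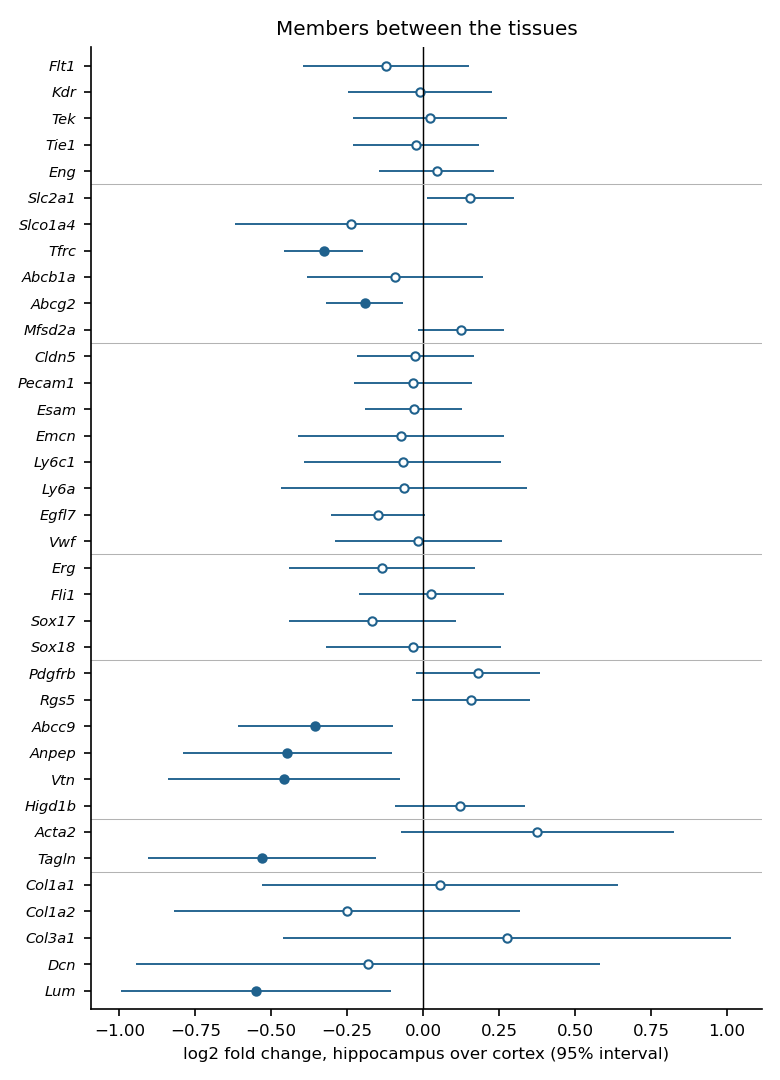
Fitted log2 fold change of hippocampus over cortex for each of the 36 genes, with its 95% interval; filled points passed the test and open points did not. The endothelial genes in the upper rows lie close to 0, and the 5 fibroblast genes in the lowest rows have the widest intervals as a class.

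Of the 6 pericyte genes, 3 were lower in hippocampus, beside 25.6% of all genes, a count too small to set the class apart. They were *Abcc9*, the sulfonylurea receptor subunit of a potassium channel, *Anpep*, an aminopeptidase of the cell surface, and *Vtn*. *Abcc9* (chr6:142587862-142702315) lay between 5.46 and 12.0 CPM in cortex (median 10.4) and between 5.66 and 11.7 CPM in hippocampus (median 7.68), with a log2FC of -0.35 ± 0.12 (edgeR adjusted *P* = 0.0199). *Anpep* (chr7:79821803-79861059) had a log2FC of -0.45 ± 0.17 (edgeR adjusted *P* = 0.0289) and *Vtn* (chr11:78499091-78502324) of -0.46 ± 0.18 (edgeR adjusted *P* = 0.0430). The high cortex values of the last pair of genes came from *Ube3aOE* mouse 8, at 8.59 CPM of *Anpep* and 83.2 CPM of *Vtn*, where the other 9 cortex libraries reached at most 5.11 and 52.3 CPM. With the mouse as a block neither passed (edgeR adjusted *P* = 0.0617 and 0.0644), nor did they without the cortex libraries of mice 8 and 9 (log2FC -0.30 and -0.28, edgeR adjusted *P* = 0.114 and 0.184). The other 3 did not pass: *Pdgfrb*, the PDGF receptor that pericytes need for recruitment, had a log2FC of 0.18 ± 0.10, *Rgs5* of 0.16 ± 0.09, and *Higd1b*, a mitochondrial protein gene typical of pericytes, lay between 1.99 and 3.23 CPM in cortex and 2.42 and 3.45 CPM in hippocampus. With the block *Pdgfrb* and *Rgs5* were higher in hippocampus (edgeR adjusted *P* = 0.0490 and 0.0243). So within 1 class genes stood on opposite sides of 0.

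The 2 smooth muscle genes also stood on opposite sides, at low levels. *Tagln*, the actin-binding protein transgelin (chr9:45929619-45936058), lay between 2.16 and 3.48 CPM in cortex and between 0.923 and 3.05 CPM in hippocampus, with a log2FC of -0.53 ± 0.18 (edgeR adjusted *P* = 0.0185). *Acta2*, smooth muscle actin, lay between 1.20 and 3.54 CPM in cortex and between 1.41 and 5.02 CPM in hippocampus, with a log2FC of 0.38 ± 0.22 that did not pass (edgeR adjusted *P* = 0.156). It passed without the cortex libraries of mice 8 and 9 (log2FC 0.57, edgeR adjusted *P* = 0.0469). *Tagln* overlaps *Pcsk7* on the opposite strand, and the strand setting of the counting was not given in the sources used here.

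Among the fibroblast genes, *Lum*, the collagen-binding proteoglycan lumican (chr10:97565128-97572703), was lower in hippocampus with a log2FC of -0.55 ± 0.21 (edgeR adjusted *P* = 0.0369), in 8 of 10 mice. Without the cortex libraries of mice 8 and 9 it did not pass (log2FC -0.47, edgeR adjusted *P* = 0.0952). The collagens *Col1a1*, *Col1a2* and *Col3a1* and the proteoglycan *Dcn* had log2FC values of 0.06, -0.25, 0.28 and -0.18 with SEs of 0.28, 0.27, 0.35 and 0.36, and none passed. The intervals of all 5 fibroblast genes reached past 0.5 in at least 1 direction, so for the 4 that did not pass a change of that size between the tissues could not be set aside.

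The classes differed in how much they varied between mice of 1 group. The median coefficient of variation (CV) within groups was 43.6% for the 5 fibroblast genes (34.1% for *Lum* to 53.5% for *Dcn*), 30.9% for the smooth muscle genes, 17.4% for the pericyte genes and 15.8% for the endothelial genes. All genes tested had a median CV of 11.7%, and genes with a mean of 10 to 100 CPM one of 9.10%. These CVs include the spread from counting, which is larger for genes with few counts, such as *Acta2* (16 to 85 a library) and *Tagln* (15 to 55). Its part in the class values was not tested. The endothelial value differed between groups. It was 23.2% in WT cortex (13.1% without mouse 2), 9.96% in *Ube3aOE* cortex, 17.5% in WT hippocampus and 14.0% in *Ube3aOE* hippocampus, where all genes had 10.4%, 11.5%, 11.2% and 12.0%. The fibroblast genes had the highest median of the classes in each group, from 29.4% in WT cortex to 59.9% in WT hippocampus. The summed level of the 5 fibroblast genes ran from 60.8 CPM in WT mouse 4 to 311 CPM in *Ube3aOE* mouse 8 in cortex, a 5.12-fold range, and from 61.4 CPM in WT mouse 5 to 224 CPM in WT mouse 4 in hippocampus. The mouse with the lowest sum in cortex thus had the highest in hippocampus, 3.69 times its own cortex value, while in *Ube3aOE* mouse 9 the hippocampus held 0.445 times the cortex value. In the cortex of *Ube3aOE* mouse 8 all 5 fibroblast genes were at their highest of the 10 cortex libraries. The share of all genes at their highest there was not counted. Macrophages of the brain's borders, which live among meningeal fibroblasts, moved with them in part. The sum of their 6 markers was highest, 36.1 CPM, in the cortex of *Ube3aOE* mouse 8, and lowest, 9.68 and 10.3 CPM, in the cortex of mice 4 and 6, the pair with the lowest fibroblast sums. In the hippocampus it was lowest in mouse 5 (8.55 CPM), as was the fibroblast sum, but highest in mouse 10 (27.9 CPM), ahead of mouse 4 (24.4 CPM). Mouse 7 had 22.3 CPM there with a fibroblast sum of 130.2 CPM. The sum of 22 other meningeal genes was 993 CPM in the cortex of *Ube3aOE* mouse 8 and 313 to 553 CPM in the other cortex libraries. The hippocampus libraries of mice 4 and 10, with the highest fibroblast sums there (224 and 199 CPM), also held much thalamus marker (553.7 and 1094 CPM). That of mouse 7 held 574.3 CPM of thalamus marker and the most choroid plexus marker. How much attached meninges or neighboring tissue taken along with the hippocampus had a part in these levels was not tested.

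**Figure D3:**
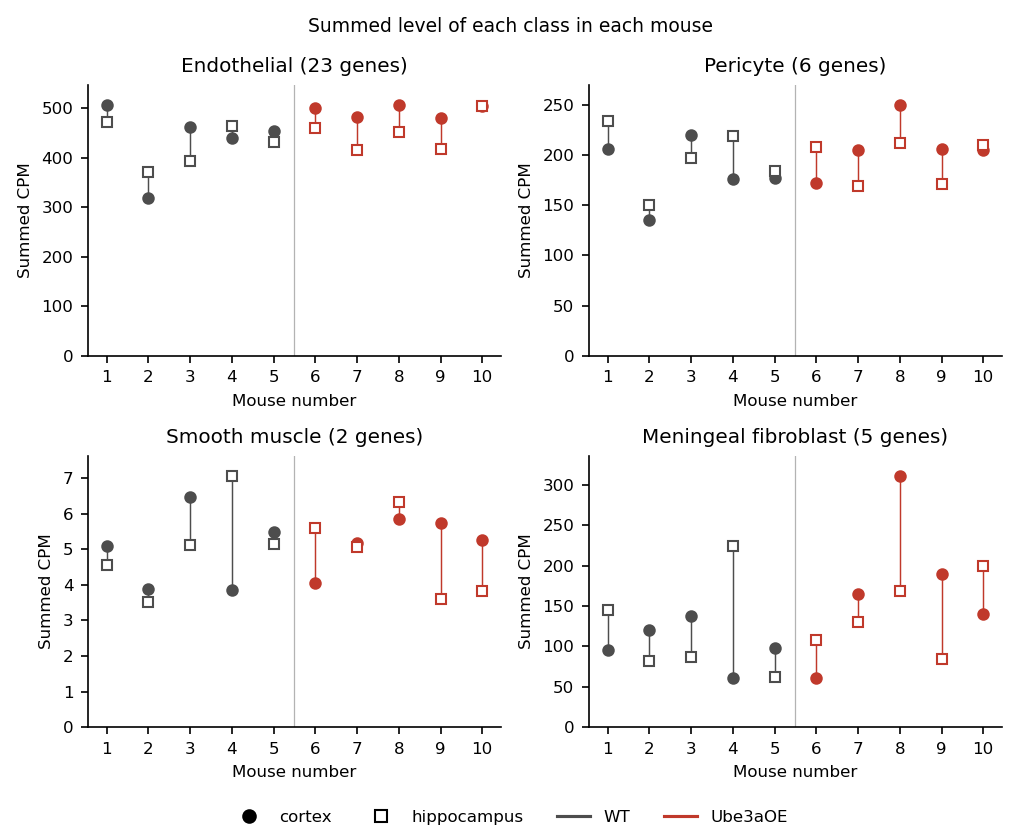
Summed CPM of the endothelial, pericyte, smooth muscle and meningeal fibroblast genes in each mouse, with a filled circle for cortex and an open square for hippocampus, WT in gray and *Ube3aOE* in red. The fibroblast sum ranges from 60.8 to 311 CPM, and the endothelial sum from 318 to 508 CPM with WT mouse 2 lowest in both tissues.

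The endothelial genes were low together in 1 mouse. In the cortex of WT mouse 2, 21 of the 23 endothelial genes were at their lowest of the 10 cortex libraries, and in its hippocampus 10 of 23 were at their lowest of the 10 there. The share of all genes at their lowest in these libraries was not counted, so these counts have no background beside them. The summed endothelial level in that mouse was 318 CPM in cortex and 372 CPM in hippocampus. In the other 9 mice it ran from 441 to 508 CPM in cortex and from 393 to 504 CPM in hippocampus. *Kdr* was at 12.6 CPM in that cortex library and between 22.5 and 31.4 CPM in the other 9, and *Cldn5* at 32.2 and between 47.3 and 58.8 CPM. *Rgs5* and *Pdgfrb* of the pericytes were also lowest there, at 71.7 and 12.8 CPM, while *Lum* and the collagens were not. Markers of other cells were lowest there too, with blood at 83.6 CPM (next lowest 105.2), microglia at 106.6 (next 108.6) and astrocytes at 1091 (next 1218). In the hippocampus of that mouse blood (98.6 CPM) and microglia (127.2) were again the lowest of 10, and the pan-neuronal sum (8181 CPM) was the highest. The cortex library of that mouse, which has the high share of *Gm42418*, also had the smallest share of its reads on genes (69.7% against 76.0% to 81.2% in the other 19 libraries) and the largest share not aligned (8.66% against 2.74% to 7.43%). The part of these differences in the low endothelial values was not tested.

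Vessels depend on ligands, receptors and partners that are made in part by vessel cells themselves and in part by other cells. Of 20 vascular ligands and partners, 8 were higher in hippocampus, 3 lower and 9 did not pass. The share that passed (55.0%) was near that of all genes (50.9%, with 25.3% higher and 25.6% lower), and the median log2FC was 0.25. *Nrp1*, a VEGF co-receptor that neurons also make, was higher by 2.18 on the log2 scale (39.9 ± 24.6 CPM in cortex and 173 ± 33.9 CPM in hippocampus, mean ± SD, 10 libraries each). *Pdgfb*, the ligand of *Pdgfrb*, was higher by 0.55 and *Notch1* by 0.66, while *Efnb2*, an ephrin of arterial endothelium and of neurons, had a log2FC of -1.30. Of 13 genes of Wnt signaling at the barrier, 6 were higher and 0 lower, beside 25.3% and 25.6% of all genes. In either direction 46.2% passed, beside 50.9% of all genes. Among the higher genes were the ligands *Ndp* (0.92) and *Wnt7a* (0.73) and the receptor partners *Tspan12* (0.56) and *Lrp5* (0.44). At an unadjusted *P* under 0.05 edgeR had 7 of these 13 higher and 2 lower, beside 56.3% of all genes in either direction. The mix of other cells differed between the tissues as well. The astrocyte marker sum in hippocampus was 1.10 to 1.86 times that in cortex, higher in all 10 mice, with 5 of 6 markers passing, and the pan-neuronal sum was lower in all 10. Their part in the levels of these ligands was not tested.

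Other genes of the same cell types, outside the 36, were mixed. Their counts are read beside the 50.9% of all genes that passed, 25.3% higher and 25.6% lower. Of 25 further endothelial genes, 4 were higher, 5 lower and 16 did not pass (36.0% passed). The tight junction gene *Ocln* (1.13) and the surface protein gene *Podxl* (0.46) were higher, and *Cgn* (-0.46), a junction plaque protein, and *Itm2a* (-0.34) were lower. Several of them are also made outside vessels. Of 10 tested further mural genes, 2 were higher (*Cald1*, 0.74, and *Myl9*, 0.28) and 0 lower, the same counts as at an unadjusted *P* under 0.05 in edgeR, so that 20.0% passed, and of the 12 listed, 2 did not pass the filter. Of 22 further meningeal genes, 4 were higher, 8 lower and 10 did not pass (54.5% passed), with a median log2FC of -0.45. The 4 with the smallest *P* were lower in hippocampus, the matrix genes *Fmod* (-2.69), *Mgp* (-1.72), *Col5a1* (-0.78) and *Col6a2* (-0.69). Of the border macrophage markers, 1 of 6 (*Mrc1*) was lower and 5 did not pass, of 6 tested blood markers 0 passed in edgeR, also at an unadjusted *P* under 0.05, and of the microglia markers 5 of 6 were higher in hippocampus.

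The genotype comparison asked whether extra *Ube3a* changed these genes. In cortex, 0 of 36 passed in edgeR, DESeq2 or limma voom. Over all 14947 genes tested there 0.00669% passed in edgeR, which is *Ube3a* alone (log2FC 1.31 ± 0.11). In hippocampus 0 of 36 passed in any of the 3 tools, where 0.00657% of the 15220 genes did, again *Ube3a* (log2FC 1.32 ± 0.11). At an unadjusted *P* under 0.05 there were 3 of 36 members in cortex, all higher in *Ube3aOE*, beside 4.44% of all genes, and 2 of 36 in hippocampus beside 7.21%. DESeq2 had 3 and 2 members under that threshold (4.56% and 7.76% of all genes), and limma voom 2 and 2 (4.1% and 7.04%). Median log2FC over the 36 genes was 0.19 in cortex and 0.07 in hippocampus, against 0.0033 and 0.0023 for all genes. Without WT mouse 2, whose endothelial levels were low, these medians were 0.05 in cortex and 0.02 in hippocampus. In that cortex fit 24 of 36 members were above 0, beside 7436 of 15036 genes tested. In the main cortex fit 33 of 36 members were above 0, beside 7677 of 14947 genes tested. Without the cortex libraries of *Ube3aOE* mice 8 and 9 the cortex median was 0.11. Without the mice whose sex-linked transcripts went against their labels the medians were 0.28 in cortex and -0.01 in hippocampus.

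*Tfrc* had the smallest edgeR *P* value in cortex. Its level in the 5 WT mice was 109, 85.4, 102, 114 and 98.3 CPM, and in the 5 *Ube3aOE* mice 134, 127, 127, 115 and 148 CPM. All 5 *Ube3aOE* values were above all 5 WT values, the closest pair being 114.7 and 114.4 CPM. The log2FC was 0.36 ± 0.08 with an edgeR adjusted *P* of 0.960. A two-sided exact permutation test of this gene alone, picked among 36 by its small *P*, gave 0.00794, the smallest that 5 against 5 can give. It was the 1 member of 36 whose groups did not overlap in cortex, where 0.676% of all genes tested had groups that did not overlap. In hippocampus *Tfrc* was at 94.5, 87.8, 69.8, 85.1 and 90.2 CPM in WT and at 89.8, 90.6, 108, 94.996 and 109 CPM in *Ube3aOE*. There the groups overlapped, with a log2FC of 0.20 ± 0.09 (exact permutation *P* = 0.0476, edgeR adjusted *P* = 0.668). In hippocampus 0 members had groups that did not overlap, beside 1.12% of all genes.

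*Anpep* and *Col1a1* came next in cortex, and both were highest in *Ube3aOE* mouse 8. *Anpep* was at 4.08, 3.44, 2.79, 1.86 and 3.55 CPM in WT and at 3.56, 5.11, 8.59, 4.70 and 4.05 CPM in *Ube3aOE* (log2FC 0.73 ± 0.26, exact permutation *P* = 0.0317, edgeR adjusted *P* = 0.960). *Col1a1* was at 23.2, 23.7, 33.9, 12.8 and 22.7 CPM in WT and at 17.8, 44.5, 64.1, 44.9 and 35.8 CPM in *Ube3aOE* (log2FC 0.84 ± 0.34, exact permutation *P* = 0.0794, edgeR adjusted *P* = 0.960). The groups overlapped for both genes. Without mouse 8 the log2FC of *Anpep* was 0.47 and that of *Col1a1* 0.62, and without the cortex libraries of mice 8 and 9 they were 0.43 and 0.49. The cortex library of mouse 8 is the one with the most border macrophage, other meningeal and hippocampus marker transcript and the least neocortex marker, and the part of these in the difference was not tested. The next 2 genes were *Col1a2* (log2FC 0.69 ± 0.35) and *Sox17* (0.32 ± 0.18), with exact permutation *P* values of 0.159 and 0.0794. Without *Ube3aOE* mouse 6, whose cortex had a low fibroblast sum, 8 of 36 members had an unadjusted *P* under 0.05, beside 7.6% of all genes. Without the cortex libraries of mice 8 and 9 it was 1 (*Tfrc*, log2FC 0.42), beside 3.19%.

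**Figure D4:**
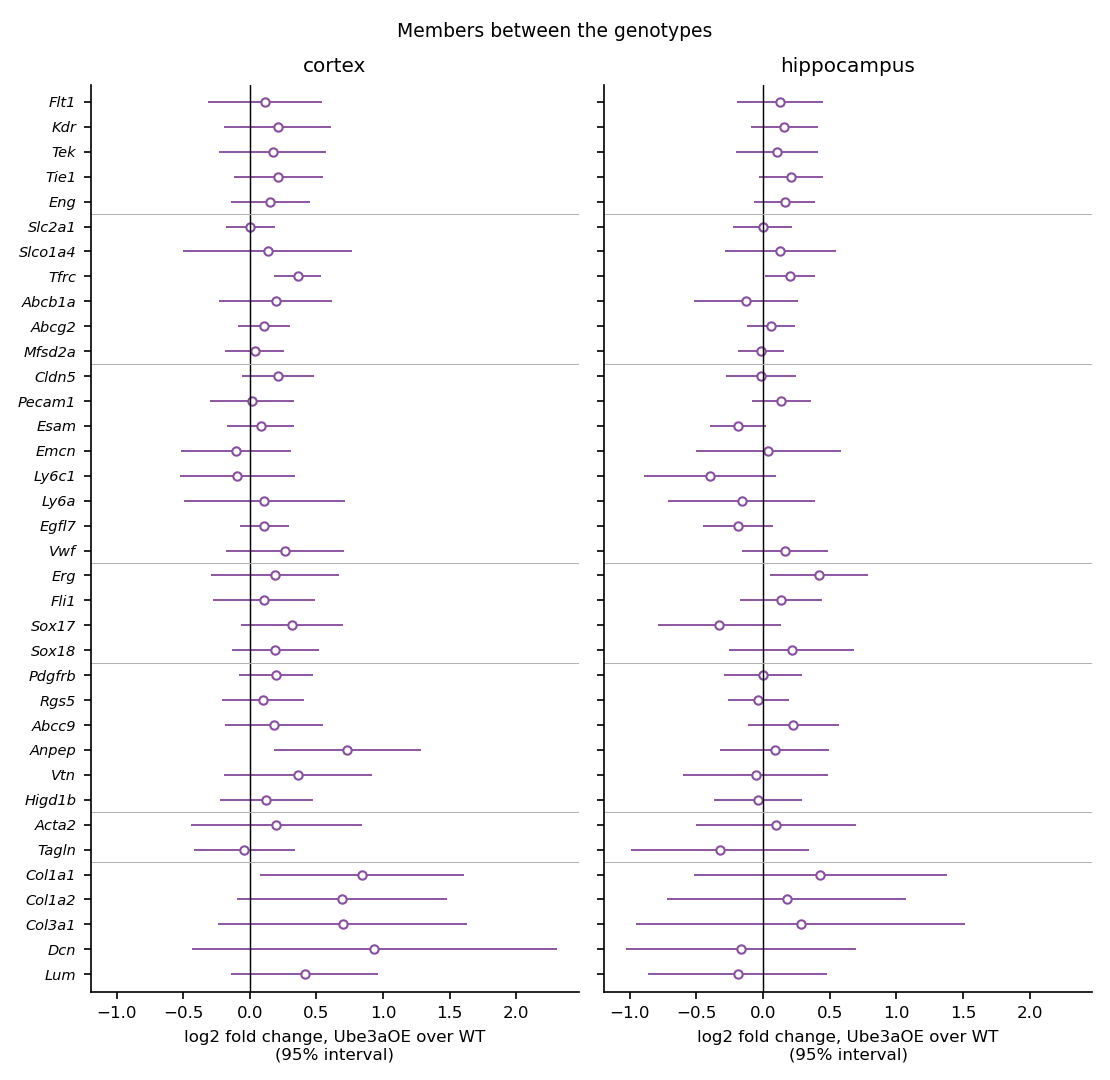
Fitted log2 fold change of *Ube3aOE* over WT for the 36 genes in cortex (left) and hippocampus (right), with 95% intervals; all points are open because none passed the test. The 3 collagens and *Dcn* have the widest intervals of the 36 in cortex, as the 5 fibroblast genes do in hippocampus, and in cortex *Tfrc* lies at 0.36.

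In hippocampus the member with the smallest edgeR *P* value, and picked for it, was *Erg*, an ETS factor that maintains endothelial identity. It was at 4.10, 2.52, 4.50, 4.88 and 3.81 CPM in WT and at 6.20, 5.61, 5.08, 5.02 and 4.67 CPM in *Ube3aOE*, with 1 *Ube3aOE* value below the highest WT value (log2FC 0.42 ± 0.17, exact permutation *P* = 0.0159, edgeR adjusted *P* = 0.668). Its lowest WT value belonged to mouse 2, and without that mouse the log2FC was 0.30. After *Tfrc*, the next were *Esam* (-0.19 ± 0.10), *Tie1* (0.21 ± 0.11) and *Ly6c1* (-0.40 ± 0.23), with exact permutation *P* values of 0.111, 0.119 and 0.206. The count of 2 members became 5 without WT mouse 2, where the share of all genes rose from 7.21% to 9.85%. It was 1 without WT mouse 3, WT mouse 5, *Ube3aOE* mouse 8 or *Ube3aOE* mouse 10, beside 4.70%, 4.53%, 7.57% and 4.16%. It was 0 without the mice whose sex-linked transcripts went against their labels, beside 2.65%.

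**Figure D5:**
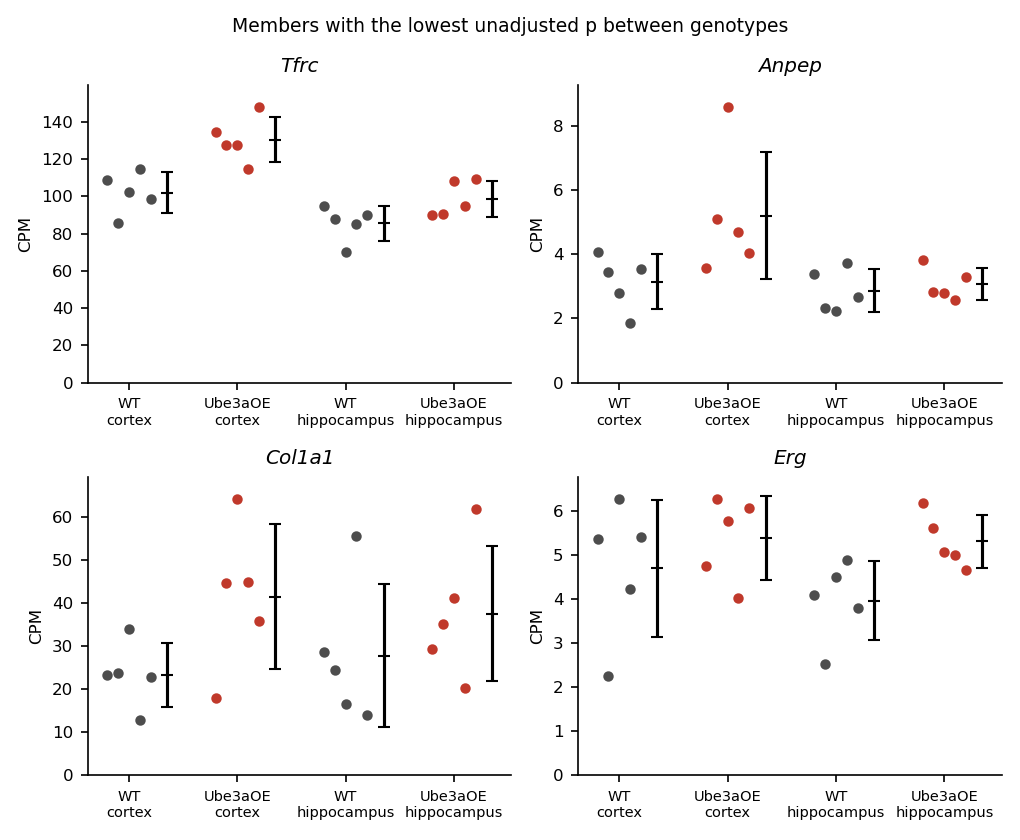
CPM of *Tfrc*, *Anpep*, *Col1a1* and *Erg* in the 5 libraries of each group, with the mean and SD beside the points. In cortex the *Tfrc* points of *Ube3aOE* lie between 114.7 and 148 CPM and those of WT between 85.4 and 114.4 CPM, and the other 3 genes overlap between genotypes in both tissues.

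Whether the genotype difference itself differed between the tissues was tested as an interaction. Again 0 of 36 members passed in edgeR, DESeq2 or limma voom. At an unadjusted *P* under 0.05 there was 1, *Sox17*, an arterial endothelial factor, beside 3.77% of all genes. *Sox17* was at 1.60, 1.87, 2.20, 1.73 and 1.81 CPM in WT cortex and at 2.41, 2.20, 2.33, 2.81 and 1.71 CPM in *Ube3aOE* cortex. In hippocampus it was at 2.29, 1.66, 1.60, 2.41 and 2.25 CPM in WT and at 1.79, 1.27, 1.71, 1.22 and 2.16 CPM in *Ube3aOE*. The difference of the genotype differences was -0.64 ± 0.27 on the log2 scale (edgeR adjusted *P* = 0.997). An exact permutation test of genotype over the 10 mice, on each mouse's log2 ratio of hippocampus to cortex, gave *P* = 0.0873. With the mouse as a replicate block 2 members were under 0.05, beside 6.03% of all genes. The number was 0 without WT mouse 4, WT mouse 5, *Ube3aOE* mouse 7 or *Ube3aOE* mouse 9 (2.43% to 4.48% of all genes), and also without the hippocampus libraries of mice 7 and 9 (3.29%) or the cortex libraries of mice 8 and 9 (3.66%). It was 2 without WT mouse 2 (6.31%) or WT mouse 3 (2.79%), and 3 without *Ube3aOE* mouse 6 (7.47%).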

How the data were processed

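The authors deposited 1 file of counts per library, whole numbers of reads per gene without normalization. Per the labels, RNA was prepared with a stranded mRNA kit, and the submitters' processing notes name HISAT2 2.1.0, HTSeq 0.11.2 and the mouse build GRCm38 (mm10). The annotation release and strand setting were not given in the sources used here. The 5 closing lines of each file, which name no gene, were left out; 69.7% to 81.2% of the records of a library were on genes. Of 47729 identifiers, 99.1% were matched to GENCODE M21 for positions and exon lengths. Groups, mouse numbers and sex came from the labels.

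Counts were tested in R 4.3.3 with edgeR 4.0.16 (TMM, filterByExpr, robust quasi-likelihood F test, two-sided, Benjamini-Hochberg over all genes tested), with DESeq2 1.42.0 and limma 3.58.1 as alternatives. The genotype fits held 10 libraries, 1 tissue at a time, and the tissue and interaction fits all 20, without a mouse block. Single members were also tested by two-sided exact permutation of genotype on log2 CPM. They were picked by their small edgeR *P* in the same libraries, and the permutation *P* values do not account for that choice. In the genotype fits *P* values rest on the spread between mice (biological CV 12.1% in cortex, 14.9% in hippocampus). In the tissue and interaction fits they rest on the spread between the 20 libraries (biological CV 13.7%). Both libraries of a mouse were taken as independent there. The fit was also run on simulated libraries drawn independently of each other, so that run could not address the pairing within mice. Python 3.11.15 was used for the rest. Mouse numbers pair the tissues because both libraries came from 1 animal. After group means were taken out, the pair's deviations correlated with a median of 0.228 (-0.0285 to 0.307, over 0.1 in 9 of 10 mice). No 2 libraries held the same counts.

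Members, lists and alternatives were chosen with earlier results of these data known. All members are named. In genotype comparisons the members with an unadjusted *P* under 0.05, or else the 5 smallest, are given, and of each further list up to 4 genes with the smallest *P* between the tissues. Positions are GENCODE M21, promoters RefSeq.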

Additional observations from a re-analysis of the deposited data

Results flagged for a closer look

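In groups of 5 libraries, a value was singled out when its gap to the nearest of the others exceeded 0.71 of the whole range. Of 176 sets of 5 (36 genes and 8 sums of genes in 4 groups) 2 were found, where chance would give about 8.8. *Sox18* was at 3.89 CPM in the cortex of WT mouse 2 and between 6.19 and 6.61 CPM in the other 4 WT cortex libraries. *Tie1* was at 13.0 CPM in the hippocampus of the same mouse and between 16.5 and 17.6 CPM in the other 4. Both values are the lowest of their group and both belong to the mouse with the lowest endothelial sums.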

How the results depend on the processing

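No member passed the test between genotypes, or for the interaction, under any of the alternatives. The number of members with an unadjusted *P* under 0.05 ran from 2 to 8 in cortex, from 1 to 5 in hippocampus and from 0 to 3 for the interaction as each mouse was left out in turn. The share of all genes ran from 2.74% to 7.6%, from 4.16% to 12.5% and from 2.43% to 7.47%. In cortex the number of members was 1 without the cortex libraries of *Ube3aOE* mice 8 and 9 (3.19% of all genes). In hippocampus it was 1 with all 20 libraries fitted together (9.95%) and 0 without the mice whose sex-linked transcripts went against their labels (2.65%). For the interaction it was 2 on library totals without TMM (4.43% of all genes), 3 with no filter on low counts (3.88%) and 2 with the mouse as a replicate block (6.03%). It was 0 without the hippocampus libraries of *Ube3aOE* mice 7 and 9 (3.29%) or the cortex libraries of mice 8 and 9 (3.66%). Between the tissues, leaving out each mouse gave 0 to 2 members higher and 2 to 8 lower in hippocampus. Of all genes, 22.9% to 26.2% were then higher and 22.4% to 24.6% lower. Without TMM 2 were higher and 2 lower. In that scaling the median of all genes was 0.05, and 4876 genes were higher and 2927 lower, where TMM gave 3963 and 4010. With the block 4 members were higher, beside 27.4% of all genes. In WT mice alone 0 were lower, beside 17.6% of all genes, and in *Ube3aOE* mice alone 3, beside 12.5%, tests on 10 libraries each. Without the mice at odds with their sex label 1 was lower, beside 19.1% of all genes. Without the hippocampus libraries of mice 7 and 9, 1 was higher and 4 lower, beside 24.6% and 24.3%. Without the cortex libraries of mice 8 and 9, 1 was higher and 3 lower, beside 25.9% and 24.7% of all genes. The cause of these differences was not tested. All 7 lower members stayed below 0 in all 23 alternatives. *Tfrc* passed in 22 of them, *Abcg2* and *Tagln* in 18, *Abcc9* in 15, *Lum* in 10, *Anpep* in 9 and *Vtn* in 7.

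Of the 29 members that did not pass between the tissues, 21 changed sign under at least 1 alternative, most of them endothelial genes with a log2FC near 0. Without TMM the log2FC was 0.048 for *Kdr*, 0.036 for *Tie1*, 0.034 for *Cldn5*, 0.026 for *Pecam1*, 0.030 for *Esam*, 0.042 for *Vwf* and 0.029 for *Sox18*. In WT mice alone it was 0.028 for *Kdr*, 0.084 for *Abcb1a*, 0.10 for *Cldn5*, 0.12 for *Esam*, 0.099 for *Ly6c1*, 0.085 for *Ly6a*, 0.017 for *Egfl7*, 0.048 for *Vwf*, 0.17 for *Sox17*, 0.021 for *Col1a2* and 0.38 for *Dcn*, and in *Ube3aOE* mice alone 0.039 for *Pecam1*, 0.011 for *Emcn* and -0.14 for *Col1a1*. Without the mice at odds with their sex label it was 0.045 for *Flt1*, 0.094 for *Kdr*, 0.026 for *Tie1*, 0.014 for *Abcb1a*, 0.032 for *Cldn5*, 0.040 for *Pecam1*, 0.016 for *Ly6a*, 0.13 for *Vwf* and 0.0068 for *Col1a2*. Without the hippocampus libraries of mice 7 and 9 it was 0.032 for *Kdr*, 0.041 for *Tie1*, 0.014 for *Cldn5*, 0.0046 for *Pecam1*, 0.044 for *Emcn* and 0.025 for *Vwf*, and without the cortex library of WT mouse 2 -0.031 for *Tek*, -0.0055 for *Eng* and -0.034 for *Fli1*. Without the cortex libraries of mice 8 and 9 it was 0.0043 for *Kdr*, 0.051 for *Abcb1a*, 0.0034 for *Cldn5*, 0.032 for *Vwf* and 0.34 for *Dcn*. *Kdr* was at 0.0035 in limma voom and, with the replicate block, at 0.0028, where *Col1a1* was at -0.0022. Leaving out each mouse gave -0.059 to 0.033 for *Kdr*, -0.027 to 0.071 for *Tek*, -0.083 to 0.017 for *Tie1*, -0.077 to 0.013 for *Cldn5*, -0.081 to 0.0098 for *Pecam1*, -0.065 to 0.018 for *Esam*, -0.16 to 0.012 for *Emcn*, -0.069 to 0.053 for *Vwf*, -0.025 to 0.078 for *Fli1*, -0.076 to 0.012 for *Sox18*, -0.23 to 0.21 for *Col1a1* and -0.095 to 0.44 for *Col3a1*. Under other scalings the endothelial, pericyte, smooth muscle and fibroblast sums kept within 1 SD of their group. The alternatives without certain libraries were chosen after seeing the data. Members such as *Ly6a*, with 7 to 34 counts a library, are limited by counting.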
